A study of Mus musculus with 2 samples.

Results

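Genes of the steroidogenic transcription factor network were followed through the cell types of the fetal mouse testis: *Nr5a1*, *Nr0b1*, *Gata4*, *Gata6*, *Zfpm2* and *Esrrg*. They were taken by gene symbol, and all 6 members were present among the 32285 genes of the deposited table. Whole testes of male mouse embryos were collected at E14.5, days counted from conception, from a cross between mice homozygous for *Nr5a1-cre* and mice homozygous for *Rosa-tdTomato*. Every nucleus therefore carried the *Nr5a1-cre* transgene, whose Cre recombinase is driven by *Nr5a1* regulatory sequence, and the tdTomato reporter allele, and no group without them was profiled. RNA and open chromatin (ATAC) were read from the same nuclei by 10x multiome, with 1 library of each, and the sources used here do not state the number of embryos. No replicate stood behind any value, so no test between animals was possible, and the 95% intervals below cover counting error only.

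NR5A1, also called SF-1, is an orphan nuclear receptor that binds DNA as a monomer and switches on the steroidogenic enzyme genes, and both Leydig and Sertoli cells of the fetal testis are known to make it. NR0B1, also called DAX1, is a nuclear receptor without a DNA-binding domain of the usual kind that represses NR5A1, and ESRRG is an orphan receptor of the estrogen-related family that reads a similar site. GATA4 and GATA6 are zinc finger factors of the gonadal soma, and ZFPM2, also called FOG2, binds GATA4 and is needed for testis formation. Stretches of DNA known as enhancers of *Nr5a1* are a fetal Leydig enhancer upstream of its start and a fetal adrenal enhancer within an intron.

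After filtering, 7197 nuclei with 77166216 RNA molecules (unique molecular identifiers, UMIs) and a median of 7949 UMIs and 4484 ATAC fragments per nucleus were kept. Clustering without the 6 genes and their peaks gave 12 classes, each called "-like" after marker genes: 755 Leydig-like, 2587 progenitor-like (interstitial mesenchyme), 748 contractile-like, 830 Sertoli-like, 81 supporting-like, 541 surface epithelium-like, 384 mesonephric mesenchyme-like, 68 pericyte-like, 97 endothelial-like, 69 immune-like, 45 erythroid-like and 992 germ-like nuclei. All 6 Leydig markers summed to 5391 UMIs per 1000000 (CPM) in Leydig-like nuclei and to 255 to 737 CPM in the other classes. All 6 Sertoli markers summed to 615 CPM in Sertoli-like nuclei and to 231 CPM in germ-like nuclei, where *Dmrt1* alone had 176 CPM and *Amh* 22.6 CPM. Of the 5 adrenal cortex markers, *Cyp11b2*, the aldosterone synthase gene, had no UMI in Leydig-like nuclei, and the list summed to 102 CPM there and to 1.95 to 15.8 CPM elsewhere. Leydig marker RNA was thus counted in all classes, and levels in germ-like nuclei stand beside each member for comparison.

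*Nr5a1* (ENSMUSG00000026751, chr2:38692656-38714542, minus strand, mm10) was highest in Leydig-like nuclei, at 383 CPM (370 to 396). Sertoli-like nuclei followed at 109 CPM (103 to 116) and supporting-like nuclei, which carry *Pax8* and keratin markers, at 71.6 CPM (55.9 to 90.3). These 3 classes were separated from each other and from the rest, since their intervals did not overlap. The other 9 classes lay between 13.1 and 40.2 CPM with no separated neighbors, with progenitor-like nuclei at 37.3 CPM (34.5 to 40.1), germ-like nuclei at 27.5 CPM (25.3 to 29.8) and surface epithelium-like nuclei lowest. The Leydig-like marker genes stood at 7.18% of their Leydig-like level in progenitor-like nuclei, and *Nr5a1* RNA carried over in that proportion would come to 27.5 CPM there. The measured progenitor-like level was 1.36 times that value, the Sertoli-like level 4.12 times, the contractile-like level 1.01 times and the germ-like level 1.07 times. These multiples depend on the markers summed, whose progenitor-like over Leydig-like ratios ran from 0.0373 for *Cyp11a1* to 0.322 for *Insl3*. Without nuclei over the automatic doublet threshold or 50000 UMIs, a restriction chosen after the data were seen, germ-like *Nr5a1* was 3.02 CPM. Within progenitor-like nuclei, the main cluster of 1985 nuclei had 41.1 CPM and the smaller cluster of 602 nuclei 29.6 CPM. The antisense gene *Nr5a1os* overlaps *Nr5a1*, and the sources used here do not state whether reads were assigned by strand.

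*Nr0b1* (ENSMUSG00000025056, chrX:86191764-86195947) was barely detected. It had 14 UMIs in Leydig-like nuclei (1.61 CPM, 0.878 to 2.69), 12 in Sertoli-like nuclei (1.20 CPM), 8 in germ-like nuclei (0.382 CPM) and 5 in progenitor-like nuclei (0.267 CPM). Its point estimate was highest in supporting-like nuclei, at 4.03 CPM from 4 UMIs, but no neighbor in the order of the 12 classes was separated from the next. Under 100 UMIs in each pair of classes, it was left out of the comparisons of level. The Leydig-like and progenitor-like intervals did not overlap (ratio 6.02, 2.05 to 21.4), so the few UMIs of this repressor of NR5A1 lay more in Leydig-like than in progenitor-like nuclei, while a full order of cell types was not detectable at this depth.

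*Esrrg* (ENSMUSG00000026610, chr1:187608791-188214885) was highest in Leydig-like nuclei at 142 CPM (134 to 150) and next in endothelial-like nuclei at 112 CPM (98.3 to 127). Mesonephric mesenchyme-like nuclei came next at 48.5 CPM (40.9 to 57.1), and these 3 classes were separated from each other and from the rest. The other 9 classes lay at 23.0 CPM or less with no next neighbors separated, among them germ-like nuclei at 18.4 CPM, progenitor-like nuclei at 13.7 CPM and Sertoli-like nuclei at 11.9 CPM. Unlike *Nr5a1*, this receptor thus stood high in a class outside the steroidogenic and supporting lineages. The endothelial-like level was 8.03 times what Leydig RNA in the proportion of the markers would give. In nuclei that were not over the automatic doublet threshold and held at most 50000 UMIs, a subset chosen after the data were seen, *Esrrg* stood at 295 CPM in 60 endothelial-like nuclei and at 165 CPM in 591 Leydig-like nuclei, so the order of the top classes turned. Genes on the opposite strand also overlap *Esrrg*.

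*Gata4* (ENSMUSG00000021944, chr14:63198922-63271692, minus strand) was highest in Sertoli-like nuclei at 1370 CPM (1348 to 1394), followed by supporting-like nuclei at 803 CPM (748 to 860). Progenitor-like nuclei at 664 CPM (652 to 675), Leydig-like nuclei at 631 CPM (614 to 648), surface epithelium-like nuclei at 621 CPM and contractile-like nuclei at 591 CPM came next. Among these 4 classes *Gata4* ranged little, with only the progenitor-like level separated from its next neighbor, and endothelial-like nuclei at 379 CPM, immune-like nuclei at 376 CPM and pericyte-like nuclei at 330 CPM lay below them. It was lowest in mesonephric mesenchyme-like nuclei at 146 CPM (133 to 161), below germ-like nuclei at 206 CPM (200 to 212), and these intervals did not overlap. In the nuclei left by the restriction just given for *Esrrg*, the order turned, with 81.7 CPM (70.1 to 94.5) in mesonephric mesenchyme-like and 13.0 CPM in germ-like nuclei. Endothelial-like nuclei fell to 69.6 CPM and immune-like nuclei to 78.9 CPM under it, and pericyte-like nuclei were at 293 CPM.

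*Gata6* (ENSMUSG00000005836) had another order. Surface epithelium-like nuclei were highest at 316 CPM (301 to 332), then Leydig-like nuclei at 234 CPM (224 to 245), supporting-like nuclei at 164 CPM (140 to 192) and Sertoli-like nuclei at 127 CPM (120 to 135), each separated from the next. Contractile-like nuclei had 103 CPM, mesonephric mesenchyme-like nuclei 99.3 CPM and endothelial-like nuclei 91.3 CPM, the last 145 CPM (114 to 183) under the restriction to nuclei not over the automatic doublet threshold and with at most 50000 UMIs. Progenitor-like nuclei, at 29.6 CPM (27.2 to 32.2), were not separated from germ-like nuclei at 31.7 CPM (29.3 to 34.2). Without nuclei over the automatic doublet threshold or 50000 UMIs, a restriction chosen after the data were seen, these levels were 28.1 CPM (25.6 to 30.8) and 2.20 CPM. *Gata6* RNA in the interstitial mesenchyme was thus low, and level with the germ-like class only while such nuclei were kept. The transcript *1010001N08Rik* lies on the opposite strand at the *Gata6* start.

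*Zfpm2* (ENSMUSG00000022306, chr15:40655035-41104592), the GATA cofactor, was lower in Leydig-like nuclei than in the other gonadal soma classes (supporting, surface epithelium, progenitor, contractile and Sertoli-like). Surface epithelium-like nuclei had 5640 CPM (5575 to 5705), mesonephric mesenchyme-like nuclei 4993 CPM (4913 to 5074), contractile-like nuclei 4888 CPM, Sertoli-like nuclei 3495 CPM (3459 to 3532), progenitor-like nuclei 2273 CPM (2252 to 2295) and Leydig-like nuclei 1367 CPM (1343 to 1392). Germ-like nuclei were lowest of the 12 classes at 756 CPM (744 to 767). In the 743 germ-like nuclei not over the automatic doublet threshold and with at most 50000 UMIs, *Zfpm2* fell to 36.0 CPM, *Gata4* to 13.0 CPM, *Nr5a1* to 3.02 CPM, *Gata6* to 2.20 CPM and *Esrrg* to 13.9 CPM. The same restriction left Leydig-like nuclei at 968 CPM of *Zfpm2* and 463 CPM of *Nr5a1*, and changed the progenitor-like levels of these genes to 2225 and 38.1 CPM. Most germ-like UMIs of *Zfpm2*, *Gata4*, *Nr5a1* and *Gata6* were thus in nuclei with a high doublet score or a high UMI count. The germ-like level of *Esrrg* changed less, from 18.4 to 13.9 CPM.

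**Figure D1:**
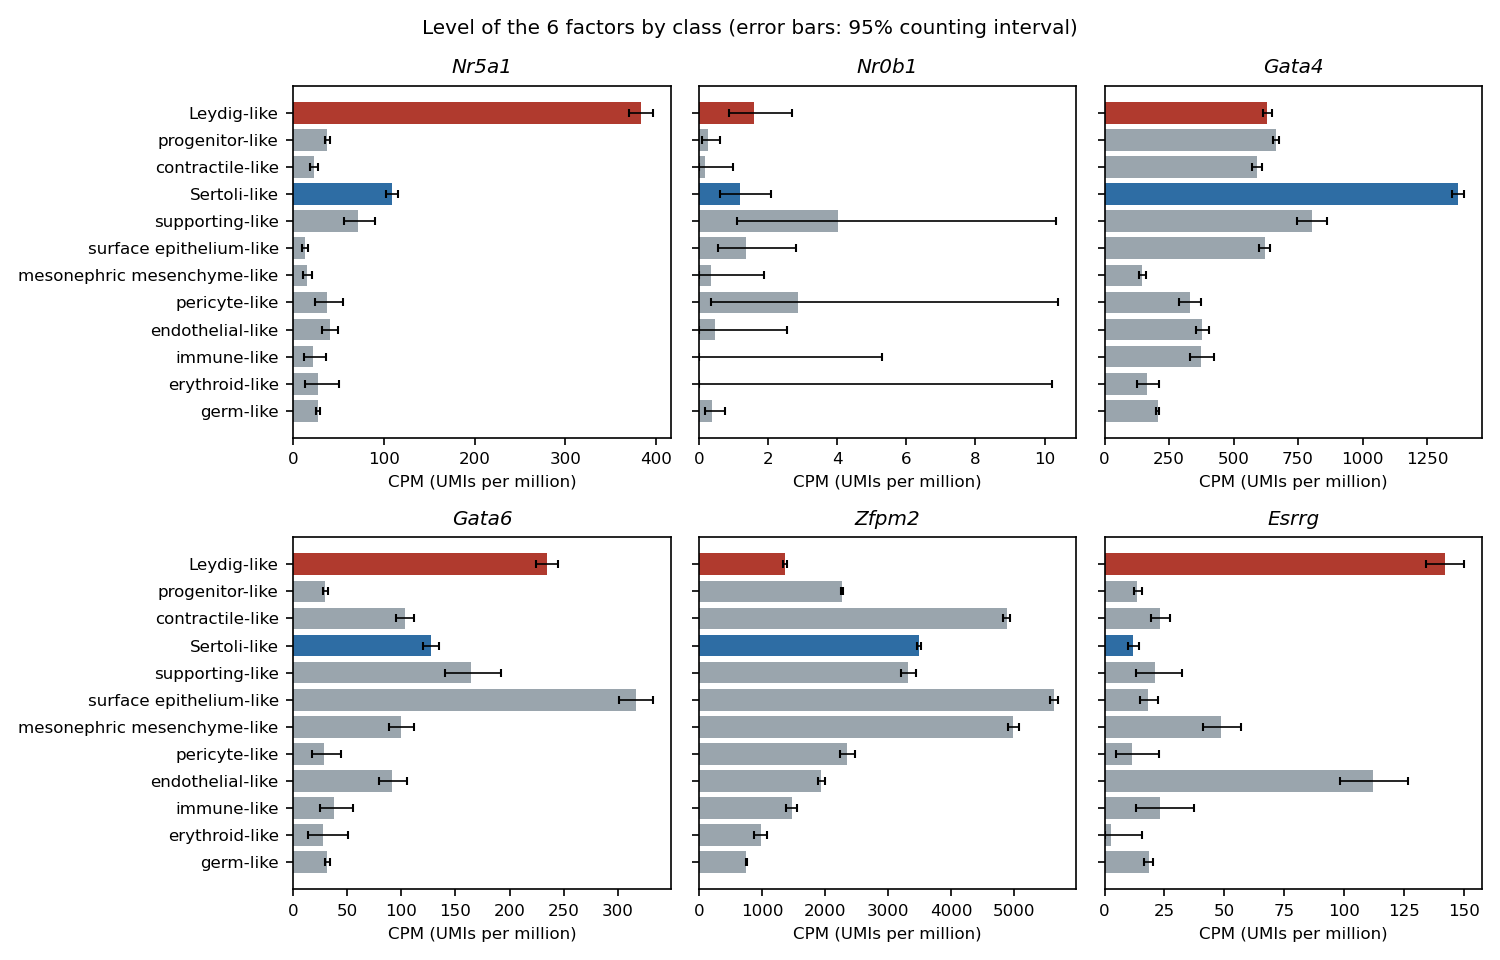
Level of each gene in the 12 classes in CPM, on a linear axis that differs between panels, with red bars for Leydig-like, blue bars for Sertoli-like and gray bars for other nuclei. Error bars are exact 95% Poisson intervals, and *Nr5a1* peaks at 383 CPM in Leydig-like, *Gata4* at 1370 CPM in Sertoli-like and *Gata6* and *Zfpm2* at 316 and 5640 CPM in surface epithelium-like nuclei.

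The comparison of Leydig-like with progenitor-like nuclei asks how the factors differ between fetal Leydig cells and the mesenchyme presumed to hold their progenitors. Of the 5 members with at least 100 UMIs, 3 were at least 2-fold higher in Leydig-like nuclei, against 10.7% of the 11840 genes compared, and 0 were at least 2-fold lower, against 13.8%. The members were chosen with earlier results of these data known. The study had ranked *Nr5a1*, *Esrrg* and *Gata6* among its leading Leydig factors, in part by their RNA in these nuclei. The count beside the share of all genes is therefore a description and not a test. *Esrrg* was 10.4-fold higher (9.05 to 11.9), *Nr5a1* 10.3-fold (9.47 to 11.2) and *Gata6* 7.92-fold (7.21 to 8.71). These 3 ratios exceeded those of 98.1%, 98.0% and 97.6% of the genes compared. *Gata4* was level, with a ratio of 0.951 (0.921 to 0.981), and *Zfpm2* was 1.66-fold lower (1.63 to 1.70). With the automatic doublet threshold the *Zfpm2* ratio was 0.381, which made 1 member at least 2-fold lower, and with classes from ATAC alone the ratios of *Esrrg* and *Gata6* were 5.91 and 4.37. *Nr5a1*, *Esrrg* and *Gata6* were therefore higher in Leydig-like than in progenitor-like nuclei, while *Gata4* was level. For *Gata6* the progenitor-like class, at 29.6 CPM, was among the lowest, and surface epithelium-like nuclei stood above Leydig-like ones.

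Between Leydig-like and Sertoli-like nuclei, 2 of 5 members were at least 2-fold higher in Leydig-like nuclei, against 9.85% of genes, and 2 were lower, against 13.4%. *Esrrg* was 11.9-fold (lower bound 9.88) and *Nr5a1* 3.51-fold (3.28 to 3.76) higher. *Zfpm2* was 2.56-fold (2.50 to 2.61) and *Gata4* 2.17-fold (2.11 to 2.24) lower. The pair of binding partners GATA4 and ZFPM2 was thus shared in direction on the Sertoli side, and *Gata6* was 1.84-fold higher on the Leydig side (1.71 to 1.97), under the 2-fold limit but past it, at 2.06, with the automatic doublet threshold. Under that threshold the *Esrrg* ratio was 21.8. *Gata4*, with ratios of 0.518 when no doublets were removed and 0.590 with classes from ATAC alone, was then inside 2-fold.

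Sertoli-like nuclei had 3 of 5 members at least 2-fold above progenitor-like nuclei, against 12.7% of genes, and 0 below, against 12.0%. *Gata6* was 4.30-fold (3.89 to 4.76), *Nr5a1* 2.93-fold (2.66 to 3.22) and *Gata4* 2.06-fold (2.02 to 2.12) higher. *Zfpm2* at 1.54-fold and *Esrrg* at a ratio of 0.868 (0.692 to 1.08) stayed inside 2-fold. With classes from ATAC alone the *Gata4* ratio was 1.78, then inside 2-fold, and the *Gata6* ratio 2.59. Progenitor-like nuclei compared with the mesenchyme of the mesonephros, the tissue next to the gonad, had 2 members higher, against 5.28% of genes, and 3 lower, against 3.97%. *Gata4* was 4.54-fold (4.13 to 5.01) and *Nr5a1* 2.41-fold (1.78 to 3.32) higher in progenitor-like nuclei, the *Nr5a1* value resting on 46 mesonephric UMIs. *Esrrg* was 3.54-fold, *Gata6* 3.36-fold and *Zfpm2* 2.20-fold higher in mesonephric mesenchyme-like nuclei. In classes from ATAC alone the ratios were 1.34 for *Gata4*, 1.30 for *Nr5a1*, 0.616 for *Esrrg* and 0.527 for *Zfpm2*, all inside 2-fold, and with the automatic doublet threshold the *Gata4* ratio was 8.57. The mesonephric mesenchyme-like class from ATAC alone held 1112 nuclei in place of 384, and no contractile-like class was separated there.

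**Figure D2:**
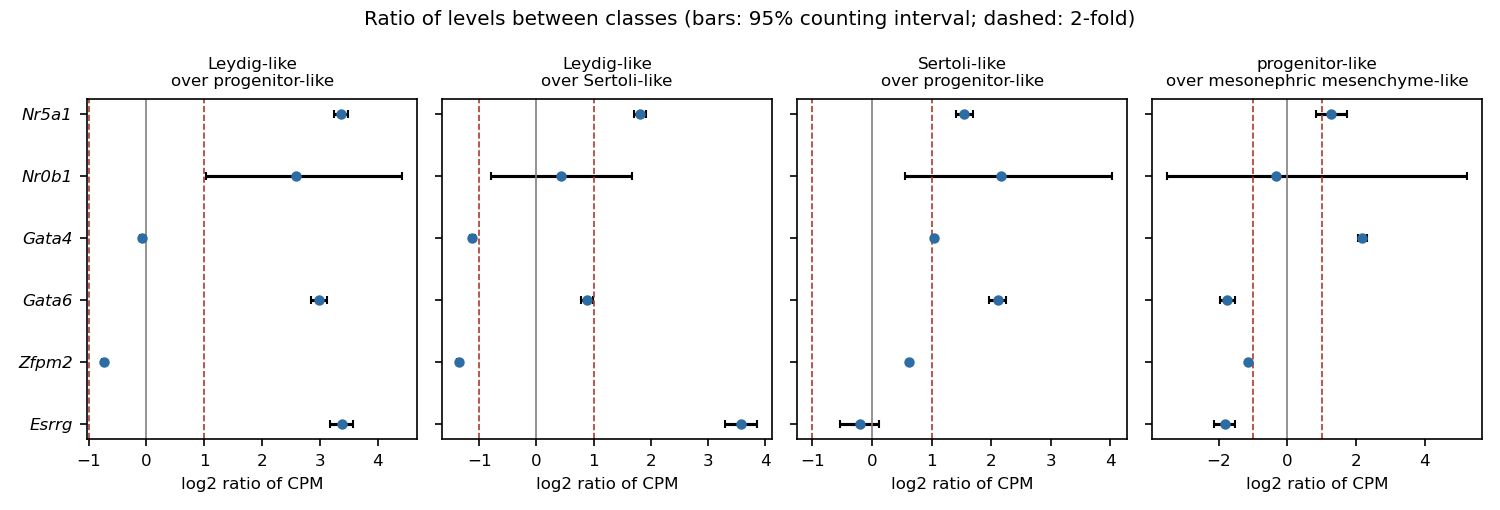
Log2 ratio of CPM for the 6 genes in the 4 pairs of classes, with exact conditional 95% intervals as bars, a gray line at no difference and dashed lines at 2-fold. *Nr5a1*, *Gata6* and *Esrrg* stand right of the upper dashed line in Leydig-like over progenitor-like nuclei, and the wide bars of *Nr0b1* rest on 14 and 5 UMIs in that pair.

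Detection in single nuclei was compared after thinning each nucleus to 2000 UMIs. *Nr5a1* then had a UMI in 53.7% of 752 Leydig-like nuclei (50.1% to 57.3%), 20.8% of 827 Sertoli-like nuclei (18.1% to 23.7%), 7.60% of 2540 progenitor-like nuclei and 2.83% of 990 germ-like nuclei (1.89% to 4.06%). Without thinning these shares were 94.4%, 65.8%, 21.0% and 17.8%, at median depths of 9859, 9845, 6296 and 15607 UMIs. The progenitor-like share of *Nr5a1* was above the germ-like share at this depth, but overlapped that of contractile-like nuclei, 5.68% (4.12% to 7.59%). Thinned to 1000 UMIs, the progenitor-like share of 3.85% (3.14% to 4.67%) also overlapped the germ-like share of 2.12% (1.32% to 3.22%). Thinned shares of *Gata4* were 91.2% in Sertoli-like, 67.0% in progenitor-like, 65.3% in Leydig-like and 13.7% in germ-like nuclei. *Gata6* was found in 41.6% of surface epithelium-like, 31.8% of Leydig-like, 20.1% of Sertoli-like and 5.94% of progenitor-like nuclei, with 2.42% in the germ-like class. *Esrrg* was found in 22.9% of the 96 endothelial-like nuclei, 20.2% of the Leydig-like and 2.09% of the progenitor-like ones, with 3.74% in the germ-like class. *Nr0b1* was found in 0.266% of the Leydig-like class, 0.202% of the germ-like class and 0 of 827 Sertoli-like nuclei (upper limit 0.445%). These *Nr0b1* shares rested on 2 Leydig-like and 2 germ-like nuclei, too few to compare. The germ-like class gave no clear background for *Esrrg*, since its level changed only from 18.4 to 13.9 CPM under the restriction of nuclei given above.

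**Figure D3:**
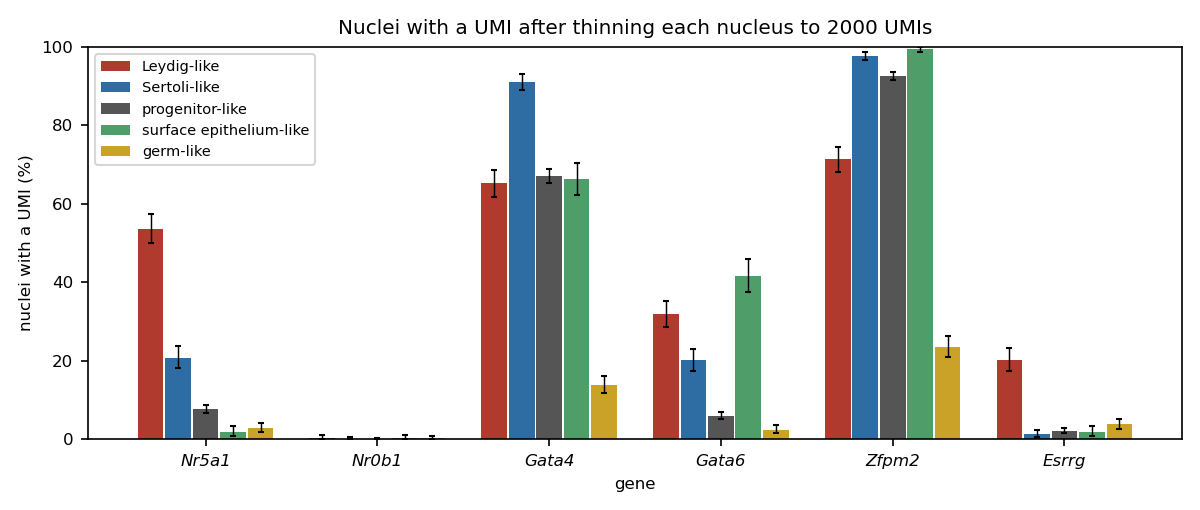
Percent of nuclei with at least 1 UMI of each gene in 5 classes after thinning each nucleus to 2000 UMIs, with exact 95% binomial intervals as error bars. *Nr5a1* stands at 53.7% in Leydig-like, 20.8% in Sertoli-like, 7.60% in progenitor-like and 2.83% in germ-like nuclei.

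The factors were then counted together in the same nucleus. At equal depth 45.1% of Leydig-like nuclei held 3 or more of the 6 genes and 15.8% held 4 or more, against 34.1% and 4.23% of Sertoli-like, 10.1% and 0.472% in the progenitor-like class and 2.83% and 0.404% in the germ-like class. In Leydig-like nuclei *Nr5a1* was found with *Gata4* in 33.9% (30.5% to 37.4%), where the product of both single shares is 35.1%. It was found with *Gata6* in 18.5%, for a product of 17.1%, with *Zfpm2* in 37.1%, for 38.4%, and with *Esrrg* in 10.1%, for 10.9%. These pairs were thus found together as often as their single shares multiply to, within counting error. Of the 15 pairs, 1 lay above its product, *Gata6* with *Esrrg* at 8.38% (6.50% to 10.6%) for a product of 6.42%, and 0 lay below. Pairs with *Nr0b1*, found in 2 of 752 Leydig-like nuclei at this depth, were too rare to be able to fall below. After thinning to 1000 UMIs no Leydig-like pair lay above and 2 lay below. Germ-like nuclei had 6 of 15 pairs above the product, such as *Gata4* with *Zfpm2* at 9.70% (7.93% to 11.7%) for 3.25%. This class included nuclei over the automatic doublet threshold or 50000 UMIs, which held most of its *Gata4* and *Zfpm2* UMIs. Pairs were not counted without them.

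Other genes of the network were read from lists, between Leydig-like and progenitor-like nuclei, at 2-fold and 100 UMIs, where all genes had a median log2 ratio of 0.01, with 10.7% higher and 13.8% lower. Steroid-side targets were higher for 10 of 11 genes with enough UMIs, with a median log2 ratio of 4.08, but 9 of the 14 listed genes also stand in a marker list used for naming classes. Of the 3 tested genes outside the marker lists, *Fdx1*, the electron donor of the mitochondrial steroid enzymes, stood at 727 CPM against 40.4 CPM *Scarb1*, the lipoprotein cholesterol receptor, was 16.9-fold higher, and *Hsd17b3*, which makes testosterone, stayed at 1.26. *Star*, the mitochondrial cholesterol carrier, was 14.1-fold and *Cyp11a1*, the first enzyme of steroid synthesis, 26.8-fold higher, as markers of the class. The cortical genes *Mc2r*, the ACTH receptor, and *Cyp21a1*, the 21-hydroxylase, were 19.8-fold (15.2 to 26.3) and 9.59-fold (6.12 to 15.6) higher, at 64.4 and 12.3 CPM in Leydig-like nuclei. In Sertoli-like nuclei, where *Nr5a1* was 2.93-fold above progenitor-like nuclei, *Star* stood at 21.5 CPM against 19.8 CPM, *Cyp17a1* at 180 CPM against 213 CPM and *Lhcgr* at 37.2 CPM against 38.4 CPM. *Cyp11a1* was at 61.2 CPM against 44.8 CPM and *Scarb1* at 115 CPM against 73.8 CPM there, while *Hsd17b3* was at 755 CPM in Sertoli-like and 5.28 CPM in progenitor-like nuclei. Sertoli-side targets had 2 of 7 higher in Leydig-like than in progenitor-like nuclei, with a median log2 ratio of 0.11: the inhibin subunit genes *Inha* (2.40-fold) and *Inhbb* (3.85-fold).

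Among related nuclear receptors 2 of 6 were higher, *Thrb*, a thyroid hormone receptor, by 10.3-fold (9.52 to 11.2) and *Rora*, a retinoid-related orphan receptor, by 4.52-fold (4.44 to 4.60), and 0 were lower. The study had ranked *Thrb* and *Rora* too among its leading Leydig factors, in part by RNA of these nuclei, so this count is a description. Of the factors known upstream of *Nr5a1* in the gonad, 1 of 9 was higher and 6 were lower, with a median log2 ratio of -1.44. *Cited2*, a transcriptional coactivator, was 6.39-fold higher in Leydig-like nuclei. *Lhx9* was 4.94-fold (4.48 to 5.47), *Cbx2* 4.85-fold, *Tcf21* 4.22-fold, *Nr2f2* 3.98-fold, *Six4* 2.71-fold and *Emx2* 2.49-fold higher in progenitor-like nuclei. *Tcf21* is also a progenitor marker here, and *Cbx2* rested on 9 Leydig-like UMIs. The study had named *Lhx9*, *Tcf21* and *Nr2f2* on the progenitor side, in part by RNA of these nuclei, so this count too is a description. The list also mixes directions of action, since the study proposes that *Tcf21* and *Nr2f2* restrain Leydig differentiation. Of 9 coregulators 0 were higher and 1 was lower, *Ppargc1a*, a coactivator of estrogen-related receptors, 4.06-fold (3.25 to 5.13) higher in progenitor-like nuclei. Of the other GATA and FOG genes only *Zfpm1* had enough UMIs, at a ratio of 1.85.

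The genes closest in pattern over the 12 classes were taken by Pearson's r of log2(CPM + 1) among 6696 genes, as a description over classes of 1 library that share free RNA. For *Nr5a1* these were *Pank1* (r = 0.972), *Dnajc15* (r = 0.950) and *Chd8* (r = 0.938). For *Gata4* they were *Gm49708*, *Zfp266* and *BC034090* (r = 0.829 to 0.847), and for *Gata6* they were *Gm26691*, *Zfp185* and *Amotl2* (r = 0.865 to 0.883). *Zfpm2* came closest to *Epha7*, *Arhgef10* and *Ptprd* (r = 0.922 to 0.937), and *Esrrg* to *Iqsec2*, *Cdh13* and *Tspan18* (r = 0.807 to 0.868). *Nr0b1* came closest to *AU041133* at r = 0.839, on the few UMIs given above. Between members r was highest for *Gata6* with *Zfpm2* (0.588), and *Nr5a1* with *Zfpm2* stood at -0.248.

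Open chromatin was compared in unique ATAC fragments at single peaks within 100 kb of each start, per 1000000 fragments at peaks (FPM), in classes clustered on RNA alone so that the peaks did not choose the nuclei. Without ATAC no contractile-like class was separated, and the classes held 787 Leydig-like, 2875 progenitor-like, 822 Sertoli-like and 994 germ-like nuclei. RNA ratios set beside peaks below are those of the classes from RNA and ATAC together, so the nuclei differ in part. The windows held 86 peaks: 30 around *Gata4*, 23 around *Nr5a1*, 12 around *Gata6*, 10 around *Zfpm2*, 7 around *Esrrg* and 4 around *Nr0b1*. Of the 47 with at least 50 fragments over Leydig-like and progenitor-like nuclei, 9 (19.1%) were at least 2-fold more open in Leydig-like nuclei, against 3.73% of the 35107 peaks compared, and 7 (14.9%) less open, against 19.1%. The 9 were 5 with stricter minimums on nuclei and 3 without the raised block around *Nr5a1*, and the 7 ranged from 2 with stricter minimums to 12 at 20 fragments. *Nr5a1* held 6 of the 9, out of 13 of its peaks compared, with 0 less open, and *Gata4* held the other 3. In Sertoli-like over progenitor-like nuclei 7 of 49 peaks (14.3%) were more open, against 7.55% of peaks, and 10 (20.4%) less open, against 24.8%.

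At the *Nr5a1* start, the peak chr2:38714155-38715086 had 116 FPM in Leydig-like nuclei (97.9 to 137), 58.0 FPM in Sertoli-like, 46.2 FPM in progenitor-like and 23.2 FPM in germ-like nuclei. It was 2.51-fold more open in Leydig-like than in progenitor-like nuclei (2.04 to 3.09) and 1.25-fold (0.978 to 1.60) in Sertoli-like nuclei, the last an interval that includes no difference. The 5 other peaks more open in Leydig-like nuclei lay downstream of the start, with ratios of 2.05 to 3.24, and the highest was chr2:38645710-38646613, 68381 bases from the start and near *Psmb7*, at 26.0 FPM against 8.03 FPM (3.24-fold). Among peaks with at least 50 fragments, the lowest ratio was in an intron of *Nr5a1*, 5237 bases into the gene, where the peak had 26.8 FPM in Leydig-like, 23.3 FPM in Sertoli-like and 51.1 FPM in progenitor-like nuclei. It was 1.91-fold (1.33 to 2.82) and 2.19-fold (1.55 to 3.18) more open in progenitor-like nuclei. The peak with most fragments, 70594 bases downstream at a *Psmb7* start, had a ratio of 0.916. The *Nr5a1* locus thus held 1 peak that leaned to the mesenchyme beside 6 at least 2-fold more open in Leydig-like nuclei. These 6 lay in a block, described below, where fragments outside peaks exceeded the flanks 9.63-fold in Leydig-like and 4.80-fold in progenitor-like nuclei. Whether the peaks opened beyond that shared rise was not tested.

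Upstream of the start, the Sertoli-like and Leydig-like classes differed most. The peak chr2:38719307-38719856, 5039 bases upstream in an intron of *Nr5a1os*, had 78.0 FPM in Leydig-like nuclei (63.2 to 95.3), 51.0 FPM in progenitor-like nuclei (45.3 to 57.1), 20.2 FPM in Sertoli-like nuclei (13.8 to 28.5) and 12.4 FPM in germ-like nuclei. It and its neighbor 4327 bases upstream were 2.53-fold (1.75 to 3.76) and 2.37-fold (1.73 to 3.31) more open in progenitor-like than in Sertoli-like nuclei. These upstream peaks were therefore open in both interstitial classes, in the mesenchyme as well as in Leydig-like nuclei. In contrast, chr2:38734488-38735369, 20386 bases upstream within an intron of the neighboring gene *Nr6a1*, had 90.8 FPM in Sertoli-like nuclei (76.5 to 107), 4.88 FPM in Leydig-like, 4.36 FPM in progenitor-like and 10.8 FPM in germ-like nuclei. It was 20.8-fold more open in Sertoli-like than in progenitor-like nuclei (13.5 to 33.2) and 18.6-fold more than in Leydig-like nuclei. The other 3 *Nr5a1* peaks more open in Sertoli-like than in progenitor-like nuclei, given because they complete the count and outside the naming rule, lay 66911 bases downstream (8.50-fold), 9871 bases upstream (3.10-fold) and at the downstream peak above (2.51-fold).

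The central 300 bases of the *Nr5a1* peaks that lay away from the start are shown as read from the plus strand of GRCm38, because they carry the class differences just given. Capitals mark GATA sites, searched as AGATAA or TGATAA on both strands, and NR5A1 core sites, searched as AAGGTCA or AAGGCCA on both strands. Neither set of letters contains the other, and they matched 26.6% and 20.3% of the same window in all 109183 peaks read.
Nr5a1 Sertoli-like peak upstream, chr2:38734778-38735077: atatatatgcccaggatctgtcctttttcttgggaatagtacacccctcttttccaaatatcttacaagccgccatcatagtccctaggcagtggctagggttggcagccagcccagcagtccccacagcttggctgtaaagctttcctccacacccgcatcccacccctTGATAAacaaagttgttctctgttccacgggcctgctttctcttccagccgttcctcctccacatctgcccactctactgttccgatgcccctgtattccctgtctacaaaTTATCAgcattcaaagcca
Nr5a1 interstitial peak upstream, chr2:38719431-38719730: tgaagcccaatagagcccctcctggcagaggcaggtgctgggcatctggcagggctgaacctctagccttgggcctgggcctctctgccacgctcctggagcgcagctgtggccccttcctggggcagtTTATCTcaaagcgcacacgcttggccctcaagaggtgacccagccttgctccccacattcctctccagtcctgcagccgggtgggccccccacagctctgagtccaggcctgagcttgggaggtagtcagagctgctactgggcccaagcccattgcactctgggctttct
Nr5a1 intron peak of progenitor-like nuclei, chr2:38709155-38709454: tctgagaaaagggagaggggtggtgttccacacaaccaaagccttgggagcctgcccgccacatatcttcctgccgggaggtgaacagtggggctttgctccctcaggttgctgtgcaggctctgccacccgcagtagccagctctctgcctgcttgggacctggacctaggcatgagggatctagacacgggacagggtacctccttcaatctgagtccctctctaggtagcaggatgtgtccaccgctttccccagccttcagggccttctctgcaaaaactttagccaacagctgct
Nr5a1 downstream peak of Leydig-like and Sertoli-like nuclei, chr2:38646011-38646310: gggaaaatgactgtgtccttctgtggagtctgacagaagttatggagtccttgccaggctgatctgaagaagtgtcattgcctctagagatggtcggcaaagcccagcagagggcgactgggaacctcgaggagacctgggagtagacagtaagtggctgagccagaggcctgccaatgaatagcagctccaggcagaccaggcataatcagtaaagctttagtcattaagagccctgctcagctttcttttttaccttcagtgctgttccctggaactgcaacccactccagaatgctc
The Sertoli-like peak held 2 GATA sites and the interstitial upstream peak 1, and neither set of letters was found in the other 2 windows. Over the 23 *Nr5a1* peaks, 7 (30.4%) held a GATA site and 2 (8.70%) a core site. A match describes the letters and does not show that a factor bound there.

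**Figure D4:**
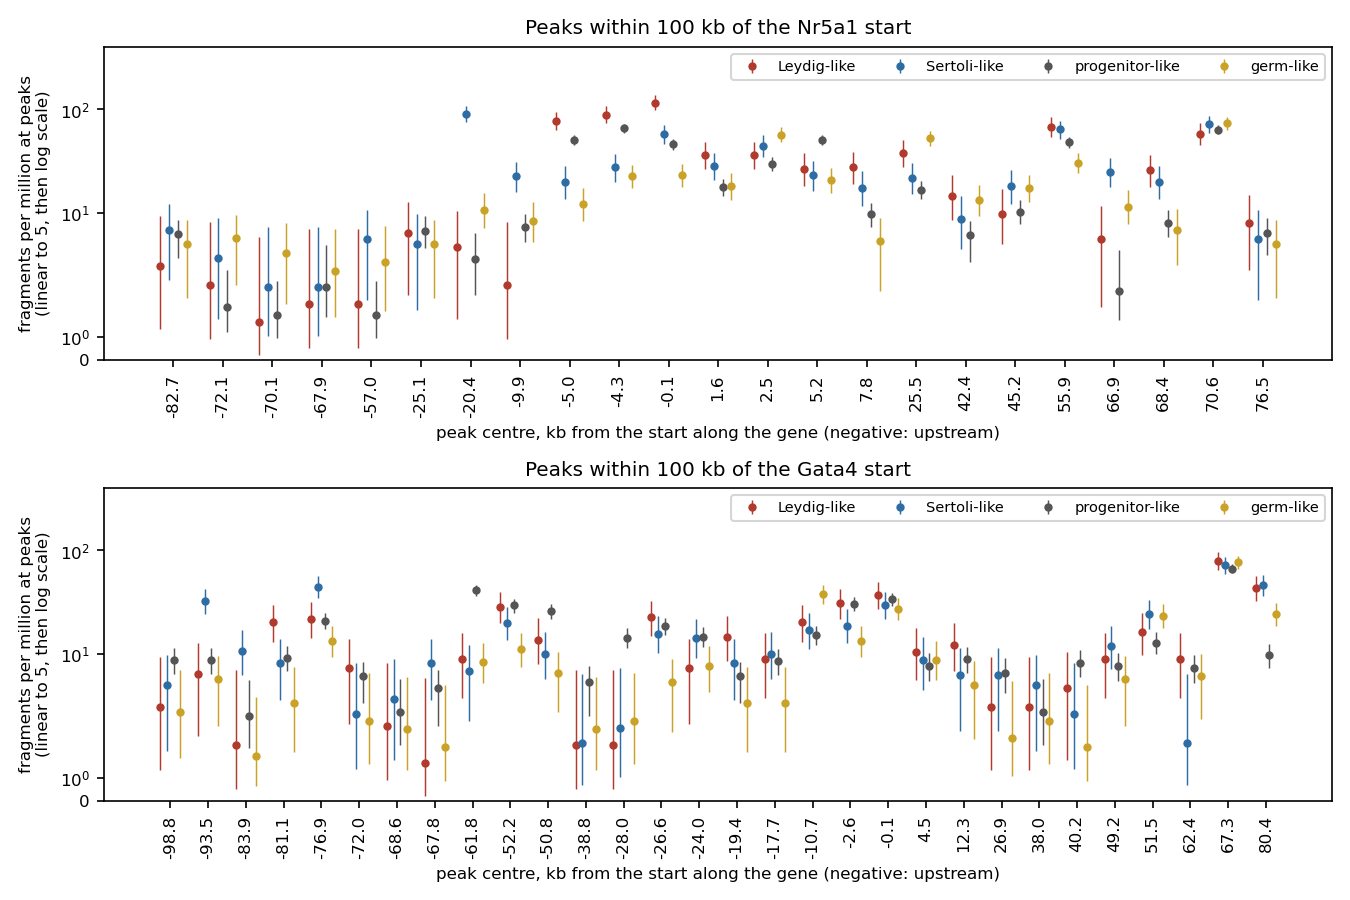
ATAC fragments (FPM) at each peak within 100 kb of the *Nr5a1* and *Gata4* starts, ordered by distance along the gene, in 4 classes made from RNA alone, on an axis that is linear to 5 and then logarithmic, with exact 95% Poisson intervals as bars. The *Nr5a1* peak 20386 bases upstream stands at 90.8 FPM in Sertoli-like nuclei and under 11 FPM in the other classes drawn, and the start peak reaches 116 FPM in Leydig-like nuclei.

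ATAC fragments outside peaks were also raised around *Nr5a1*, in every class. In bins of 10 kb, a block from 20 kb upstream to 80 kb downstream of the start, its edges chosen after the bins were seen, lay at 4.47 to 19.3 times the median autosomal bin in all kept nuclei and at 4.33 to 12.8 times in germ-like nuclei. The bin just upstream of the block stood at 1.16 times, and flanks on both sides had a median of 1.60 times. The bins 90 and 100 kb downstream, at 2.76 and 2.19 times, were left out of both block and flanks. Farther out, single bins 290 and 210 kb upstream also stood at 5.94 and 6.31 times in all kept nuclei. Of all autosomal windows of 11 bins, 0.0159% had a median as high in germ-like nuclei. Per base outside peaks the block exceeded its flanks 9.63-fold in Leydig-like (8.08 to 11.6), 6.02-fold in Sertoli-like (5.21 to 6.98), 4.80-fold in progenitor-like (4.36 to 5.30) and 3.56-fold in germ-like nuclei (3.18 to 3.99). The block was thus raised also in germ-like nuclei, where *Nr5a1* RNA was low. Its Leydig-like excess went the same way as the peak ratios above. Germ-like nuclei over the automatic doublet threshold or 50000 UMIs were included in these counts and held most *Nr5a1* UMIs of that class. An alternative added after the data were seen left out peaks centred from 20 kb upstream to 80 kb downstream of the start. It lowered the Leydig-like count from 9 to 3 peaks and the Sertoli-like count from 7 to 4. The Sertoli-like peak 20386 bases upstream lies in the outermost upstream bin of the block, but just past this cut, and was kept. All embryos carried *Nr5a1-cre*, and whether copies of *Nr5a1* sequence in the transgene add fragments there was not tested.

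**Figure D5:**
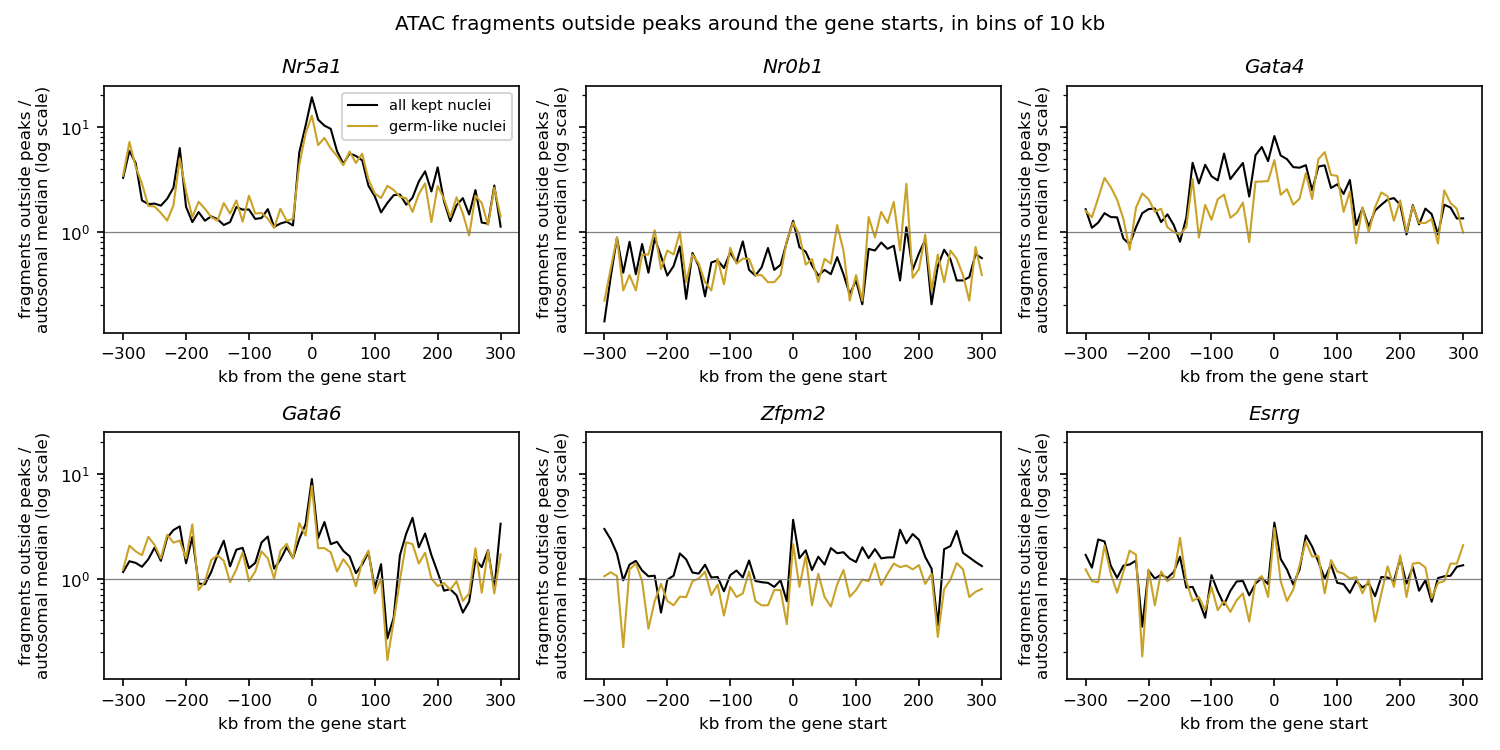
ATAC fragments outside peaks in bins of 10 kb within 300 kb of each gene start, divided by the median autosomal bin and drawn on a logarithmic axis against the distance along the gene, in all kept nuclei (black) and in germ-like nuclei (yellow). Around *Nr5a1* both lines step up 20 kb upstream of the start and reach 19.3 and 12.8 times the median, and the medians within 50 kb in all kept nuclei are 5.89 for *Nr5a1*, 4.74 for *Gata4*, 2.24 for *Gata6*, 1.21 for *Zfpm2*, 1.01 for *Esrrg* and 0.487 for *Nr0b1*.

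Around *Gata4* the start peak chr14:63244940-63245815 did not differ, with 37.4 FPM in Leydig-like, 29.6 FPM in Sertoli-like, 33.9 FPM in progenitor-like and 27.5 FPM in germ-like nuclei, although *Gata4* RNA was 2.06-fold higher in Sertoli-like than in progenitor-like nuclei. The peak chr14:63306623-63307474, in intergenic DNA 61777 bases upstream, had 41.2 FPM in progenitor-like nuclei against 8.94 FPM in Leydig-like, 6.93 FPM in Sertoli-like and 8.51 FPM in germ-like nuclei. It was 5.94-fold more open in progenitor-like than in Sertoli-like nuclei (3.26 to 12.1) and 4.61-fold more than in Leydig-like nuclei (2.53 to 9.36). A peak 27991 bases upstream leaned the same way, 5.94-fold more open in progenitor-like than in Leydig-like nuclei (1.96 to 29.4), on 86 fragments over both classes. The peak with most fragments, 67258 bases downstream at an *Fdft1* start, had a ratio of 1.19. Upstream *Gata4* peaks leaned both ways. Given because they complete the counts and outside the naming rule, these lay 19443 and 81061 bases upstream, 2.39-fold and 2.20-fold more open in Leydig-like nuclei, and 93459 and 76906 bases upstream, 3.76-fold and 2.12-fold more open in Sertoli-like nuclei. Also past 2-fold and outside that rule, peaks 23967 and 98825 bases upstream were at least 2-fold more open in progenitor-like than in Leydig-like nuclei, and peaks 50838 bases upstream and 40185 bases downstream were 2.58-fold (1.54 to 4.63) and 2.17-fold (0.926 to 6.21) more open in progenitor-like than in Sertoli-like nuclei. Upstream is counted from the 5′ end in the deposited table, and the peaks 19443 and 23967 bases upstream lie in a *Gata4* intron. A peak 26550 bases upstream lies within 1 kb of another *Gata4* transcript start. On the other side, chr14:63164408-63165265, within 1 kb of a start of *Fdft1*, the squalene synthase gene of cholesterol synthesis, was 4.41-fold (2.97 to 6.53) and 4.71-fold (3.28 to 6.79) more open in Leydig-like and Sertoli-like than in progenitor-like nuclei. It lies 80435 bases downstream of the *Gata4* start and held 2 core sites in its central 300 bases. Core sites were found in 11 (36.7%) of the 30 *Gata4* peaks and GATA sites in 6, against 20.3% and 26.6% of all peaks.

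The upstream *Gata4* peak of progenitor-like nuclei is shown from the plus strand of GRCm38 with its core site in capitals, because it carries the largest *Gata4* difference between Sertoli-like and progenitor-like nuclei.
Gata4 upstream peak, chr14:63306898-63307197: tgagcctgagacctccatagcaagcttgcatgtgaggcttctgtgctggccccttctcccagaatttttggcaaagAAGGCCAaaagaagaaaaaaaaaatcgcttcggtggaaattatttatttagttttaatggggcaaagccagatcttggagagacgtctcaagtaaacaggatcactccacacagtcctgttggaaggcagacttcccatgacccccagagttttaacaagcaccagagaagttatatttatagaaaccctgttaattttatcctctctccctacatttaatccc
The window held 1 core site and no GATA site.

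The *Zfpm2* start peak had 17.9 FPM in Leydig-like, 29.6 FPM in Sertoli-like, 26.7 FPM in progenitor-like and 21.7 FPM in germ-like nuclei, with a Leydig-like over progenitor-like ratio of 0.670 (0.408 to 1.05). A second *Zfpm2* start peak, 1251 bases into the gene, had 9.75 FPM in Leydig-like, 12.0 FPM in Sertoli-like and 10.8 FPM in progenitor-like nuclei, a Leydig-like over progenitor-like ratio of 0.901. Of 4 *Zfpm2* peaks compared, 2 were less open and 0 more open in Leydig-like than in progenitor-like nuclei, where 19.1% of all peaks were less open. The one with the lowest ratio lay 74063 bases into the gene and was 2.58-fold more open in progenitor-like nuclei (0.944 to 9.84), and the intervals of both peaks included no difference. At *Gata6* the start peak had 36.6 FPM in Leydig-like, 34.7 FPM in Sertoli-like, 43.8 FPM in surface epithelium-like, 23.7 FPM in progenitor-like and 20.5 FPM in germ-like nuclei. Its ratios over progenitor-like nuclei were 1.54 (1.07 to 2.17) and 1.46 (1.05 to 2.01), where the RNA ratios, in the classes from RNA and ATAC together, were 7.92 and 4.30. A second start peak 701 bases into *Gata6* had 19.5 FPM in Leydig-like and 10.6 FPM in progenitor-like nuclei (1.83-fold, 1.09 to 2.98). The lowest *Gata6* ratios on at least 50 fragments were at 44738 bases downstream for Leydig-like and 92765 bases downstream for Sertoli-like nuclei, 2.25-fold (0.980 to 6.38) and 2.82-fold (1.14 to 9.07) more open in progenitor-like nuclei. At *Esrrg* the first start peak had 8.13 FPM in Leydig-like and 6.63 FPM in progenitor-like nuclei on 48 fragments, under the minimum for a comparison. Of its 2 peaks compared, 42952 and 53375 bases into the gene, 0 passed 2-fold, with ratios of 1.03 and 1.04, although RNA was 10.4-fold higher. The second of these was 2.06-fold more open in progenitor-like than in Sertoli-like nuclei (1.02 to 4.70). The *Esrrg* starts in the deposited table span 389 kb, so peaks near the farthest of them lay outside the window.

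The *Nr0b1* start peak chrX:86191345-86192338 had 12.2 FPM in Leydig-like, 11.3 FPM in Sertoli-like, 6.11 FPM in progenitor-like and 10.1 FPM in germ-like nuclei. Its ratio over progenitor-like nuclei was just under 2 in Leydig-like (1.01 to 3.75) and 1.86 in Sertoli-like nuclei (0.990 to 3.37), on 50 and 53 fragments and under the 2-fold limit. This start was thus open in all 4 classes while its RNA was almost absent. The 250 bases before its start in RefSeq (GRCm38, plus strand) are shown because the peak covers them, and they hold neither searched set of letters.
Nr0b1 promoter, chrX:86191525-86191774: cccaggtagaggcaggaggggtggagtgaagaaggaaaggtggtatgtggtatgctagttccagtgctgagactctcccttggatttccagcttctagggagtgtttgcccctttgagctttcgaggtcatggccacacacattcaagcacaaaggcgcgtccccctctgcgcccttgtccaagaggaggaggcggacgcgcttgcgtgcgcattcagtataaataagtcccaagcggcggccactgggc
Of 32851 RefSeq promoters of 300 bases, 10.6% held a core site and 18.6% a GATA site. The promoter table matched *Nr0b1* and *Esrrg*, whose 4 promoters held neither as well, and did not match *Nr5a1*, *Gata4*, *Gata6* or *Zfpm2*.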

How the data were processed

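Raw counts were analysed. Per the labels and the study's methods, the authors ran Cell Ranger ARC 2.0.1 on mm10 and deposited counts (UMIs per gene, transposase cuts per peak called over all nuclei) and the list of unique fragments, with no normalization. Of 9833 deposited barcodes, 7667 met the study's thresholds: mitochondrial UMIs below 10%, ribosomal protein UMIs below 10%, haemoglobin UMIs below 0.5%, more than 500 genes, and 250 to 25000 fragments at peaks that made up more than 20% of all. Scrublet in scanpy 1.11.5 removed 470 nuclei by rank (6.13%), which leaves part of the doublets. The blacklist filter, doublet caller and ambient RNA removal of the study were not used here. Precision follows the UMIs of each class, which held 45 to 2587 nuclei.

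Clusters were made in Seurat 5.3.0 (R 4.3.3) at resolution 0.3 from RNA and ATAC together for levels and from RNA alone for peaks, without the members and their peaks, and named by the highest mean z score of fixed markers. UMIs per class were divided by the class total (CPM), with exact Poisson, conditional binomial and Clopper-Pearson intervals at 95%. Calls needed 2-fold and at least 100 UMIs or 50 fragments over both classes. All members were named, list genes past 2-fold, the 3 genes closest in pattern, and per member the start peaks, the peak with most fragments and those with the largest and smallest ratios. Scripts were tested on simulated data. Distances are from the 5′ end of the gene in the deposited table to the peak centre. Gene spans are from GENCODE, sequences from GRCm38. The members and lists were chosen with earlier results of these data known. edgeR 4.0.16 gave the TMM factors of one alternative. The sequence and values of 1 *Zfpm2* peak are not reported here.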

Additional observations from a re-analysis of the deposited data

Results flagged for a closer look

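ATAC fragments outside peaks, which no comparison of levels or peaks used, were raised around *Nr5a1* in germ-like nuclei. *Nr5a1* RNA in that class was 27.5 CPM, and 3.02 CPM without nuclei over the automatic doublet threshold or 50000 UMIs. The germ-like bins were counted with those nuclei included. The median bin of the block from 20 kb upstream to 80 kb downstream of the start lay at 5.85 times the autosomal median in germ-like nuclei and at 5.89 times in all kept nuclei, against 1.61 and 1.60 times in the flanks. Within 50 kb of the start, germ-like medians were 5.30 for *Nr5a1*, 2.56 for *Gata4*, 1.94 for *Gata6* and 0.778 for *Zfpm2*. The 95th percentile of autosomal bins was 3.29. Whether *Nr5a1* sequence carried by the *Nr5a1-cre* transgene sets this level was not tested.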

How the results depend on the processing

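No paired analysis was possible because each assay had 1 library. No called ratio of a member changed sign under the alternatives run, and 144 recomputed ratios stayed within the counting interval of the main value while 118 left it. Counts of members past the limit stayed within 1.5 times except as follows. A 3-fold limit gave 2 of 5 members in Leydig-like over Sertoli-like nuclei (4 at 2-fold), 1 in Sertoli-like over progenitor-like (3) and 3 in progenitor-like over mesonephric mesenchyme-like nuclei (5), and classes from ATAC alone gave 1 in the last pair. Peaks more open in Leydig-like than in progenitor-like nuclei (9) were 5 with stricter minimums and 3 without the block around *Nr5a1*. Peaks less open there (7) were 3 with the automatic doublet threshold, 2 with stricter minimums, 4 with classes from ATAC alone, 11 with cuts in place of fragments, 12 at 20 fragments and 4 within 50 kb. Peaks more open in Sertoli-like nuclei (7) were 11 at 20 fragments, 2 within 50 kb and 4 without the block. That last cut kept the *Nr5a1* peak 20386 bases upstream, in the block's outermost bin. Peaks less open in Sertoli-like nuclei (10) were 6 with the automatic threshold and 6 within 50 kb. Thinned to 1000 UMIs, shares of Leydig-like nuclei were 33.9% for *Nr5a1*, 46.2% for *Gata4*, 21.1% for *Gata6*, 53.0% for *Zfpm2* and 11.9% for *Esrrg*, and pairs below their product rose from 0 to 2. Subtracting an estimate of free RNA took 7.81% of Leydig-like and 30.3% of germ-like UMIs and left *Nr5a1* at 4.39 CPM in germ-like nuclei. The profile subtracted was the pooled RNA of all deposited barcodes, scaled by the lowest share of a marker list of another class. These shares are therefore a setting of the alternative and not a measurement of free RNA. *Nr0b1* gave no ratio where mesonephric mesenchyme-like nuclei had none of its UMIs. The causes were not tested. Depth limits *Nr0b1* and most distal peaks.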
